A study of Homo sapiens with 12 samples.

Results

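Nuclear pore genes were examined in IMR90 ER:RAS cells, in which oncogene-induced senescence (OIS) is switched on by a drug and XPO7, an exportin, was knocked down. The members were picked by gene symbol as nucleoporins and proteins held at the pore, and not by a rule on their values. Earlier results of these data were known when they were chosen. The symbols were matched to the Ensembl identifiers of the count table. All 31 were found among its 62069 genes, and 30 had enough counts to be tested.

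IMR90 is a line of human lung fibroblasts, and IMR90 ER:RAS cells carry an estrogen receptor fusion of RAS that becomes active when 4-hydroxytamoxifen (4OHT) is added. RNA-seq was available for 4 groups of 3 libraries. The first group, called vector here, was labelled as not induced, and the second, vector/4OHT, as induced. The other groups, shXPO7_3/4OHT and shXPO7_5/4OHT, were induced and carried 1 of 2 shRNAs against XPO7. All groups shared the ER:RAS transgene, passage p13, 7 days of growth with new medium on day 4, and a label of day 5 after induction, and the treatment note gives 4OHT at 100 nM. The name vector for the first 2 groups comes from the study, which calls it a nontargeting control in these cells, and not from the sample labels. The 3 induced groups differed from the first in 4OHT itself as well as in active RAS, and no group had an XPO7 shRNA without 4OHT. Whether the 3 libraries of each group stem from independent cultures is not labelled, and the p-values then measure library spread alone, possibly technical.

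Totals ran from 28534141 to 60397769 counts per library. XPO7 was at 135 ± 7.04 CPM (counts scaled to library size, SD, n = 3) in vector, 137 ± 8.81 in vector/4OHT, 27.7 ± 1.14 in shXPO7_3/4OHT and 52.2 ± 1.62 in shXPO7_5/4OHT, so the targeted gene followed its labels. Summed fibroblast markers were between 16696 and 27880 CPM, epithelial ones between 37.8 and 56.6 CPM and endothelial ones between 1.70 and 4.17 CPM. Blood markers did not pass 0.198 CPM in any library, and PECAM1, an endothelial marker, was at 0 in all 12.

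The nuclear pore is a large ring of proteins set in the nuclear envelope, through which RNA and protein move between nucleus and cytoplasm. A scaffold of Y-shaped complexes and an inner ring holds a channel of flexible proteins, which exclude most large molecules and let transport receptors such as exportins pass. Fibres on the cytoplasmic face and a basket on the nuclear face serve RNA export, and a few membrane proteins anchor the ring. In dividing cells the envelope breaks down at mitosis and pores are built again at its end.

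Start regions of some of the members whose RNA changed during OIS are shown first, because the letters there can be set beside the values that follow. They are examples, and motif counts by call over all members with a start region are given further below. RefSeq start regions on GRCh38.p14 were matched by symbol for 27 of the 31 members. Each is given 5′ to 3′ on the strand of its gene, with capitals for letters that match 1 of the motifs searched. NUP37 (chr12:102120115-102120314, minus strand), NUP205 (chr7:135557717-135557916, plus strand) and SEH1L (chr18:12947811-12948010, plus strand) are given over the 200 bases before the RefSeq start. For NDC1 (chr1:53838310-53838339, minus strand) and NUP62 (chr19:49929544-49929573, minus strand) only 30 bases are given, since GENCODE 29 places an exon of a longer transcript there. The stretch of SEH1L also lies within its GENCODE 29 gene, which starts at 12947133. That of NUP37 runs into its gene at the 3′ end, since the gene reaches to 102120124.
NUP37: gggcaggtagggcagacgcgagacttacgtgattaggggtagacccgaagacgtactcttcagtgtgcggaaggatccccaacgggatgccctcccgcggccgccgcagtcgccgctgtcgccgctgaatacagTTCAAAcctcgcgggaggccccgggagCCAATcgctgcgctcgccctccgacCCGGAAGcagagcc
NUP205: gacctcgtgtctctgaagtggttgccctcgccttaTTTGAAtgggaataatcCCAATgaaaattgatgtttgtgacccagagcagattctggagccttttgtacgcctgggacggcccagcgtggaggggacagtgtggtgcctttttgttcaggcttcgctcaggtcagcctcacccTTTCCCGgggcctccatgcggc
SEH1L: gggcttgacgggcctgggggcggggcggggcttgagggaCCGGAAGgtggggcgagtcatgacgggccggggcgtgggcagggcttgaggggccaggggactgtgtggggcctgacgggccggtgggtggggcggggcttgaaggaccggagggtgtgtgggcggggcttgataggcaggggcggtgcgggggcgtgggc
NDC1: ggccttcctgccTTTGAActgcggtggcgg
NUP62: cgggcccagTGCGCATGCGCAgccgcgcgc

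The motifs were searched on both strands in windows of 300 bases, 250 before and 50 after the start. They were the CHR (TTTGAA), an element of genes of the late cell cycle, the CCAAT box (CCAAT), E2F sites (TTTGGCG or TTTCCCG), the core of the NRF1 site (TGCGCA), an ETS site (CCGGAAG) and E-boxes of the kind bound by TCF3 (CACCTG or CAGCTG). None of these motifs contains another. The ETS letters were present in 11 of 27 member windows, or 40.7%, against 10.7% of 27305 windows in the table. E2F letters were present in 5, or 18.5%, against 6.11%. The CHR was present in 6 (22.2% against 15.4%), the CCAAT box in 10 (37% against 35.7%) and the NRF1 core in 3 (11.1% against 8.42%). E-boxes were present in 4, or 14.8%, against 34.3%. NDC1 carried the CHR 31 to 26 bases before its start, and NUP62 carried a pair of adjoining NRF1 cores in the stretch shown. Such matches describe the letters and show neither binding nor regulation. The 27305 windows were not limited to genes tested here, so their shares are not a matched background.

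Levels between genes were compared per length, as RPKM, which scales counts by exon length and by library size. In vector, the 30 tested members ran from 2.48 to 42.7 RPKM with a median of 8.13. SEC13, a scaffold protein that also serves in vesicle coats, was highest at 42.7 ± 2.39 RPKM and stayed first in every group. NUP153, NUP98, NUP205 and NUP188 followed between 16.2 and 16.9 RPKM, with SDs from 0.220 to 1.86, so their order was within the spread. POM121, a membrane anchor, was lowest of those tested at 2.48 ± 0.296 RPKM. NUP210, the large glycoprotein of the membrane ring, had between 0 and 4 counts in each library and was not tested. The near-identical copies of RANBP2 (the RGPD genes) were each at or below 0.266 CPM in the group means, and POM121B was at 1.44 CPM in vector and 1.62 CPM in vector/4OHT. POM121C, another near-identical copy of POM121, has no value here, so its level is not known. How reads with several matches were counted is not given in the sources used here. RANBP2 and POM121 values are therefore uncertain to the extent that reads could be shared with copies.

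**Figure D1:**
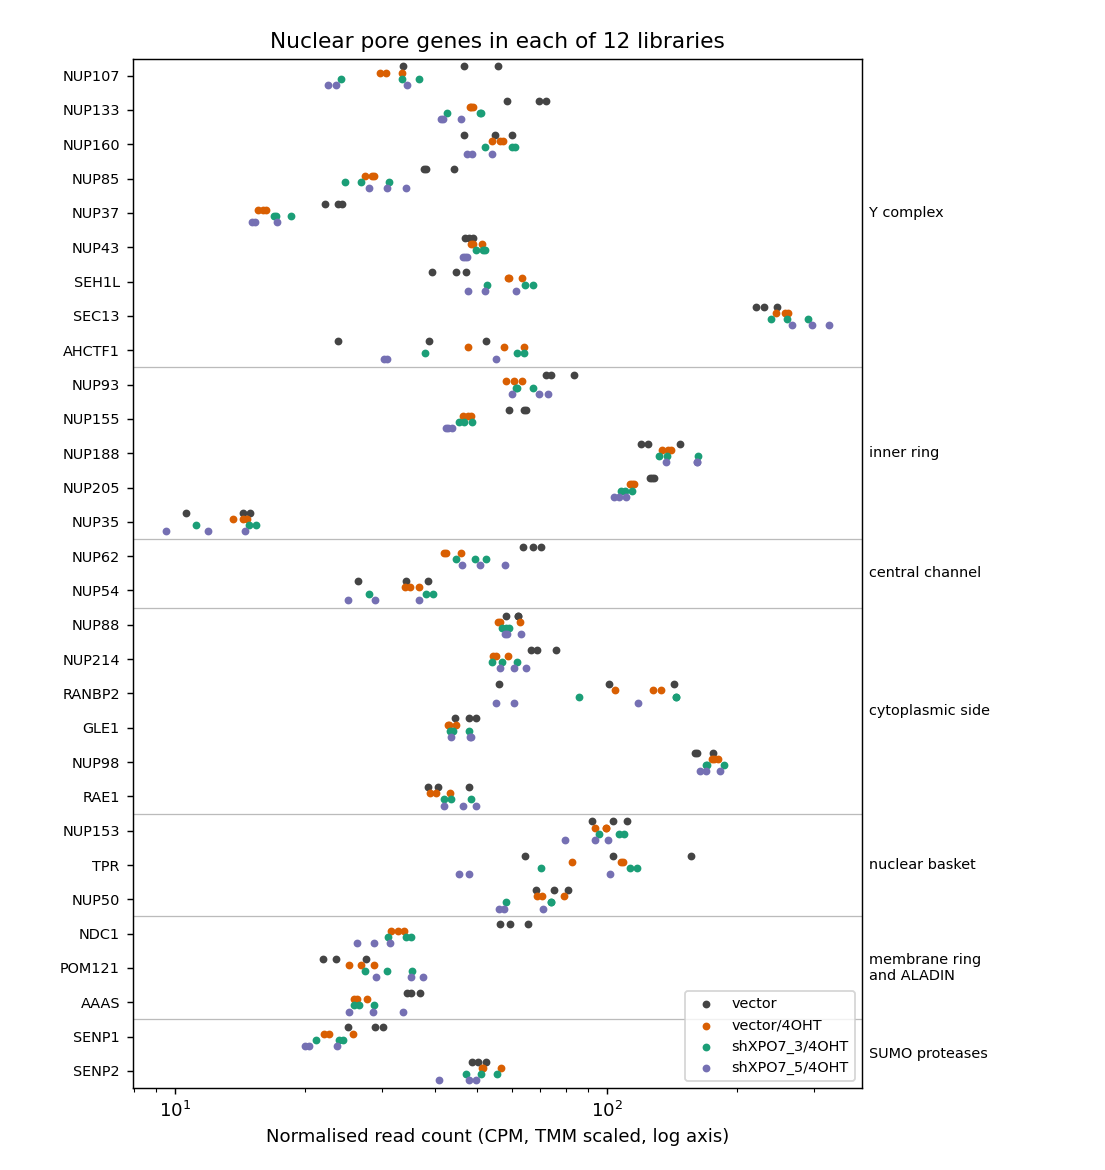
Normalised read counts (CPM, TMM scaled, log axis) of the 30 tested nuclear pore genes, grouped by their place in the pore. Each point is 1 library and the colours are the 4 groups; SEC13 is highest in the Y complex, and TPR, RANBP2 and AHCTF1 spread most widely within groups.

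During OIS, 12 of 30 members changed, 11 downwards and 1 upwards. The share called was 40% of members against 50.9% of all 15284 genes tested, so the members were called no more often than genes at large. The calls split into 36.7% of members lower against 26.1% of all genes, and 3.33% higher, against 24.8%. No member that fell did so by 2-fold or more, against 10.1% of all genes. The 12 called members were also those whose libraries did not overlap between the groups, which held downwards for 31.4% and upwards for 31.8% of all genes. The median over the members was -0.065 on the log2 scale, against -0.0068 over all genes, and 18 of 30 lay below 0, against 50.6% of genes. Calls had an adjusted p under 0.05 in edgeR's quasi-likelihood test over all genes. With upper-quartile scaling the median over all genes shifted to -0.105 and the split moved to 2872 higher and 4633 lower, from 3793 and 3984, or 49.1% in all, while the members gave 1 higher and 12 lower.

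Of the membrane anchors, NDC1, which ties the pore to the envelope, had the largest change of all members. NDC1 (ENSG00000058804, chr1:53765460-53838860 on GRCh38, minus strand) was at 56.4, 59.6 and 65.4 CPM in vector and at 33.8, 32.8 and 31.6 CPM in vector/4OHT. Every induced library lay below every vector library. The log2 fold change was -0.88 ± 0.09 (SE, n = 3 against 3, edgeR adjusted p = 3.62e-06), which left 54.1% of the vector level. AAAS, which encodes the pore protein ALADIN, fell by 0.41 on the log2 scale (adjusted p = 0.00364 in edgeR). POM121 had a log2 fold change of 0.15 that did not pass (adjusted p = 0.329 in edgeR), and its libraries overlapped between the groups.

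Of the channel proteins, NUP62, an FG protein of the central transporter, fell and its partner NUP54 did not pass the test. NUP62 (ENSG00000213024, chr19:49906825-49929763 on GRCh38, minus strand) was at 70.1, 67.4 and 63.6 CPM in vector and 41.9, 42.2 and 45.9 CPM in vector/4OHT. The groups did not overlap, with a log2 fold change of -0.63 ± 0.09 (edgeR adjusted p = 0.000132). Exons of other genes cover 21.1% of its exon length, among them ATF5 on the opposite strand and IL4I1 on its own, and the strand setting of the counting is not given. NUP54 had a log2 fold change of 0.09 (95% interval -0.28 to 0.45).

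In the Y complex, which builds the outer scaffold, 4 of 9 genes fell and 1 rose. NUP37, a small propeller protein of the complex, was at 23.8, 22.2 and 24.3 CPM in vector and 15.9, 15.6 and 16.2 CPM in vector/4OHT (ENSG00000075188, chr12:102073103-102120124 on GRCh38, minus strand). These values were well apart, and the log2 fold change was -0.56 ± 0.08 (edgeR adjusted p = 7.36e-05). NUP85 was at 44.1, 37.6 and 38.0 CPM in vector and 27.5, 28.6 and 28.9 CPM with 4OHT, and its log2 fold change was -0.49 ± 0.10 (edgeR adjusted p = 0.00179). No library of one group overlapped the other. NUP133, a stem protein of the complex, fell by 0.46 on the log2 scale (adjusted p = 0.00153 in edgeR).

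NUP107 was the least secure of these. Its vector libraries spread from 33.6 to 46.6 and 55.7 CPM, while those of vector/4OHT were at 29.8, 33.5 and 30.7 CPM. The lowest vector library thus lay just above the highest induced one, and the log2 fold change was -0.53 ± 0.21 (edgeR adjusted p = 0.0464). The call was lost, with an adjusted p from 0.0513 to 0.185, on leaving out vector A or C, vector/4OHT T, A or B, shXPO7_3/4OHT A or B, or shXPO7_5/4OHT T, and with a replicate block, a model term for the replicate letters (0.0685).

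SEH1L, a Y complex member that also works in a regulator of mTORC1, rose alone. SEH1L (ENSG00000085415, chr18:12947133-12987536 on GRCh38, plus strand) was at 39.3, 44.6 and 47.0 CPM in vector and 58.8, 63.6 and 59.1 CPM in vector/4OHT. All induced libraries lay above all vector libraries, with a log2 fold change of 0.47 ± 0.12 (edgeR adjusted p = 0.00456). AHCTF1, which seeds new pores on chromatin after mitosis, had a larger log2 fold change of 0.56 but a 95% interval of -0.09 to 1.21 (edgeR adjusted p = 0.14), and its libraries overlapped. NUP160, NUP43 and SEC13 had log2 fold changes of 0.05, 0.05 and 0.13 and did not pass.

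In the inner ring, which lines the scaffold, 3 of 5 genes fell. NUP155, a link between membrane and scaffold, fell by 0.40 on the log2 scale (adjusted p = 0.000201 in edgeR). NUP93, which organises the ring, was at 83.6, 73.8 and 72.2 CPM in vector and 58.2, 60.9 and 63.5 CPM with 4OHT, with a log2 fold change of -0.33 ± 0.09 (edgeR adjusted p = 0.0076). NUP205 was at 125, 129 and 127 CPM in vector and 113, 114 and 115 CPM in vector/4OHT. Its small log2 fold change of -0.15 ± 0.05 passed because its libraries lay close together (edgeR adjusted p = 0.0346). The NUP205 call was lost, with an adjusted p from 0.0501 to 0.108, on leaving out any library of vector or vector/4OHT, or shXPO7_5/4OHT T, and also with a filter of at least 1 count (0.306), a replicate block (0.0891) and the correction for GC content (0.0504). NUP188 and NUP35 had log2 fold changes of 0.08 and 0.10 and did not pass.

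On the cytoplasmic side, NUP214, an FG protein of the export platform, was the only 1 of 6 to change. It was at 76.1, 66.7 and 68.7 CPM in vector and 58.8, 55.4 and 54.3 CPM in vector/4OHT, with no overlap and a log2 fold change of -0.33 ± 0.08 (edgeR adjusted p = 0.00499). Its binding partner NUP88 had a log2 fold change of -0.06 (95% interval -0.22 to 0.09). The mRNA export factors GLE1, RAE1 and NUP98 had log2 fold changes of -0.12, -0.05 and 0.10 with overlapping libraries. None of the 3 basket genes passed, with log2 fold changes of -0.07 for NUP153, -0.12 for TPR and -0.04 for NUP50. Of the SUMO proteases that dock at the pore, SENP1 had a log2 fold change of -0.26 just short of the threshold (edgeR adjusted p = 0.0533) and SENP2 one of 0.08.

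Of the 12 calls, 10 were kept in all 21 alternative fits at the same threshold, the exceptions being NUP107 and NUP205, and none of the 12 values given here reached 1 in size on the log2 scale. The libraries differed in how their counts depended on the GC content of transcripts. With GC content and length corrected for, the calls were 5 higher and 11 lower, and 64.8% of all genes were then called. AHCTF1 (0.50), SEC13 (0.27), POM121 (0.29) and NUP188 (0.19) joined SEH1L above 0 on the log2 scale. SENP1 joined the members that fell, and NUP205 was lost.

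Markers of dividing cells moved in the same comparison. All 16 of the proliferation genes fell, with a median of -2.20 on the log2 scale, and their summed level went from 1582 to 1696 CPM in the vector libraries to 389 to 407 CPM in vector/4OHT. Of the 8 fibroblast markers 5 also fell, with sums from 24016 to 27880 CPM in vector and from 16696 to 18154 CPM in vector/4OHT. MKI67, a marker of dividing cells, had a log2 fold change of -3.30, against -0.88 for NDC1. The part of these changes in the pore values was not tested. In bulk RNA, fewer cells of a type and less RNA per cell cannot be told apart.

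The 19 partners of the pore, chosen as soluble transport factors and export enzymes that work with it, gave 8 lower and 2 higher calls. The share called, 52.6%, was near the 50.9% of all genes. NUP58, another channel protein beside NUP62 and NUP54, rose by 0.58 on the log2 scale (adjusted p = 0.00318 in edgeR). NUP62 and NUP58 thus moved in opposite directions, as measured at the RNA level. RANGAP1, the activator of the RAN GTPase that sits on RANBP2, fell by 0.47 (adjusted p = 0.00154 in edgeR), PCID2, an mRNA export factor, by 0.46 (9.97e-05) and RANBP1, a RAN cofactor, by 0.40 (0.00154).

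**Figure D2:**
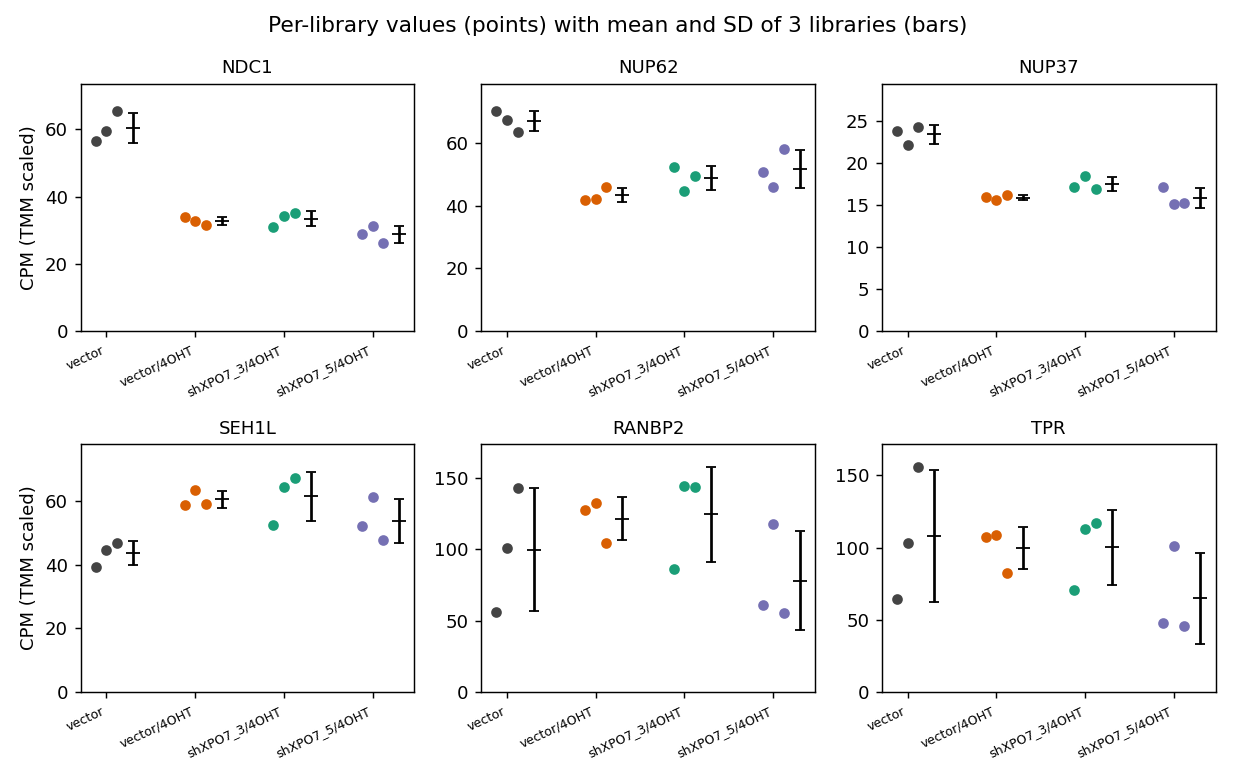
CPM of NDC1, NUP62, NUP37, SEH1L, RANBP2 and TPR in each library (points), with the mean and SD of 3 libraries beside them. NDC1, NUP62 and NUP37 lie lower and SEH1L higher in vector/4OHT than in vector with no overlap, while RANBP2 runs from 56.2 to 143 CPM within the vector group alone.

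RANBP2 and TPR, named here because of their spread after the values were seen, showed how far single libraries could move a member. RANBP2, the giant SUMO ligase of the cytoplasmic fibres, was at 56.2, 101 and 143 CPM in vector T, A and C. In shXPO7_5/4OHT it was at 60.7, 118 and 55.3 CPM in T, A and B. TPR, which forms the fibres of the basket, was at 64.6, 103 and 156 CPM in the same vector libraries and at 47.8, 101 and 45.4 CPM in those of shXPO7_5/4OHT. Within their groups both genes were low in vector T, in shXPO7_3/4OHT T (86.0 CPM for RANBP2 and 70.3 CPM for TPR) and in shXPO7_5/4OHT T and B, and high in vector C.

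The 6 members with the widest spread within groups were TPR, RANBP2, AHCTF1, NUP107, NUP35 and NUP54. Their pooled within-group SDs ran from 0.24 to 0.51 on the log2 scale, while the other 24 stayed at or under 0.16. The transcripts of these 6 had a GC content from 39.1% to 41.5%, and those of the other 24 from 39.8% to 57.7%, so the ranges overlapped. NUP37 (39.8%) and NUP155 (41.5%) had SDs of only 0.073 and 0.048. Across the 30 members, which share libraries and are not independent, the Spearman correlation of the SD with GC content was -0.31 and that with length was 0.27. An SD has no sign, so this cannot show whether genes of low and high GC content moved in opposite directions. Set against the vector mean over all genes tested, vector T, A and C had Spearman correlations with GC content of 0.59, -0.13 and -0.64. The part of GC content in the spread was not tested.

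XPO7 knockdown was compared with vector/4OHT to ask whether loss of an exportin went with a change of the pore through which it passes. No member passed with either shRNA. The background was low too: 0.124% of genes were called with shXPO7_3 and 0.589% with shXPO7_5, by edgeR over all genes. At an unadjusted p under 0.05 there were 0 members with shXPO7_3 and 5 with shXPO7_5, against 6.41% and 21.6% of all genes. DESeq2 also called 0 members in both comparisons, against 0.643% of genes with shXPO7_3 and 3.63% with shXPO7_5. These 2 comparisons share the vector/4OHT libraries.

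With shXPO7_3 the members stayed close to vector/4OHT, with log2 fold changes from -0.08 to 0.21 and a median of 0.023, and 11 of 30 lay below 0 against 51.1% of all genes. The 95% intervals of 27 of 30 members lay within 0.5 of 0 on the log2 scale, and those of AHCTF1, RANBP2 and TPR did not. The smallest unadjusted p-values belonged to NUP62, NUP37 and POM121. NUP62 was at 52.3, 44.6 and 49.5 CPM against 41.9, 42.2 and 45.9 CPM, a log2 fold change of 0.17 ± 0.09 (edgeR adjusted p = 0.926), and the libraries overlapped. NUP37 was at 17.1, 18.5 and 16.9 CPM, above all of vector/4OHT, as were 7.46% of all genes, with a log2 fold change of 0.14 ± 0.08 (edgeR adjusted p = 0.947). POM121 had a log2 fold change of 0.21 ± 0.12 (edgeR adjusted p = 0.963).

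With shXPO7_5 the differences were wider, from -0.64 to 0.33, with a median of -0.095. Of the 30, 19 lay below 0, against 49.3% of all genes, and 22 of 30 intervals lay within 0.5 of 0. NUP62 was at 50.8, 46.0 and 58.0 CPM, above every vector/4OHT library, with a log2 fold change of 0.25 ± 0.09 (edgeR adjusted p = 0.194). POM121 was at 37.4, 29.1 and 35.1 CPM against 28.8, 25.2 and 26.95 CPM, a log2 fold change of 0.33 ± 0.12 (edgeR adjusted p = 0.194). SEC13 was at 298, 268 and 325 CPM against 246, 257 and 262 CPM, a log2 fold change of 0.22 ± 0.09 (edgeR adjusted p = 0.207). None of these 3 overlapped with vector/4OHT, which held for 14.2% of all genes in the upward direction. Another 6 members (NUP133, NUP43, NUP155, NUP205, NDC1 and SENP2) lay wholly below vector/4OHT, against 12.6% of all genes, with log2 fold changes from -0.21 to -0.08. Of these, NUP155 (-0.15) and SENP2 (-0.21) were the other members with an unadjusted p under 0.05. The lowest values belonged to RANBP2 (-0.64), TPR (-0.62) and AHCTF1 (-0.54), whose 95% intervals all included 0.

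**Figure D3:**
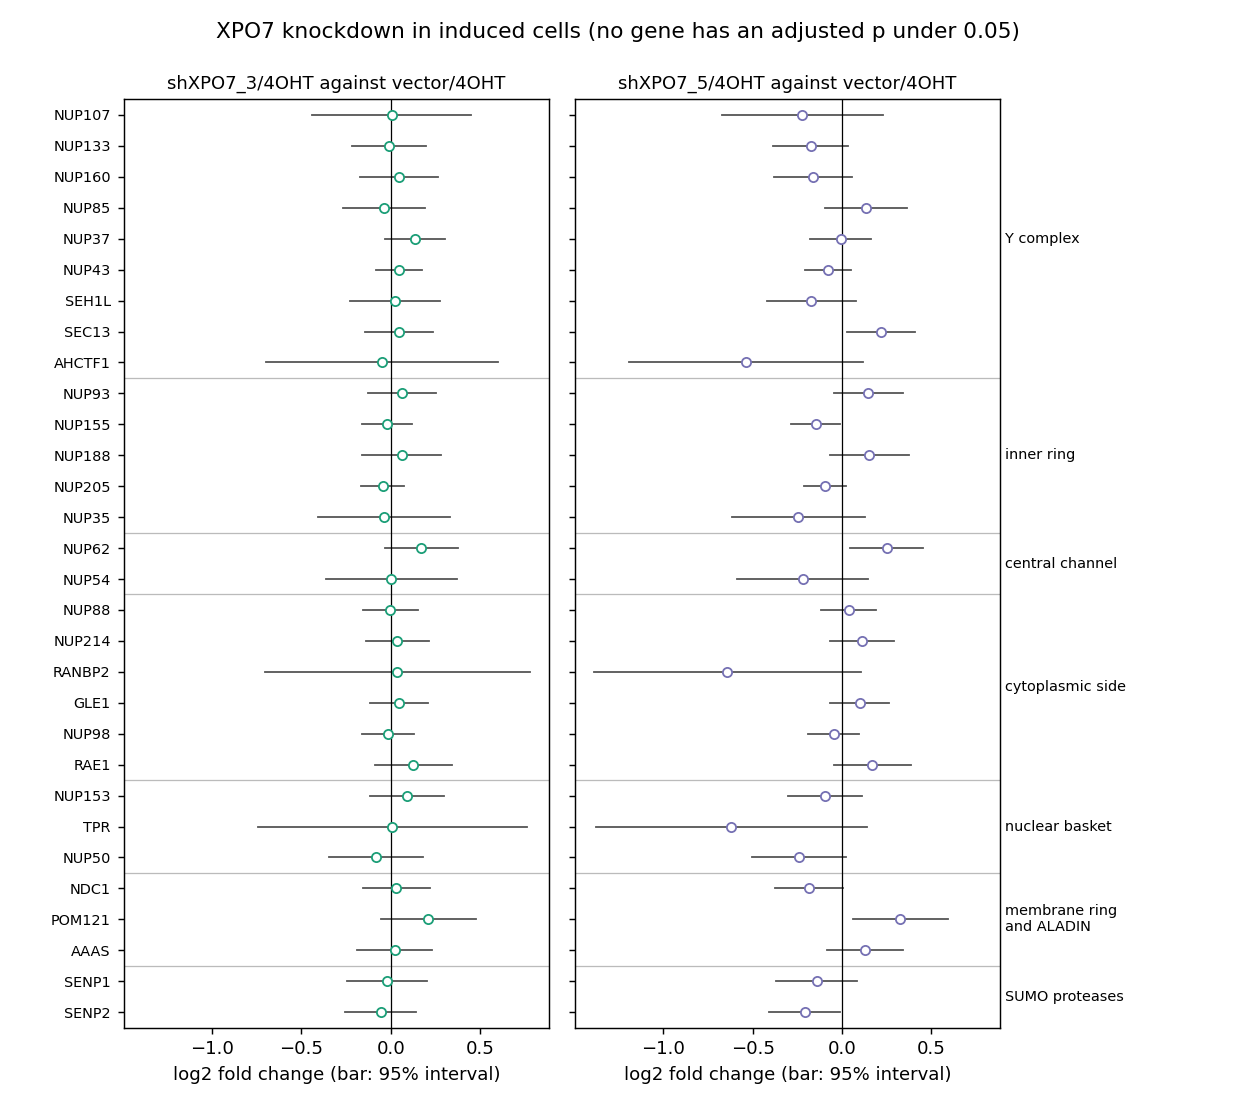
Log2 fold change of each shRNA group against vector/4OHT for the 30 tested members, with 95% intervals as bars. No member has an adjusted p under 0.05; RANBP2, TPR and AHCTF1 have the widest intervals in both panels.

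The low values with shXPO7_5 went with the GC content of the members. Across the 30 members the Spearman correlation of the log2 fold change with GC content was 0.84 for shXPO7_5 and 0.35 for shXPO7_3, and after correction for GC content and length it was 0.29 and 0.14. The correlation differed between libraries of a group when each was set against the vector/4OHT mean over all genes tested. It was 0.61, 0.12 and 0.79 in shXPO7_5/4OHT T, A and B and 0.58, -0.34 and -0.25 in shXPO7_3/4OHT T, A and B. After correction the median of the members with shXPO7_5 was 0.060 in place of -0.095, and 7 of 30 lay below 0. RANBP2 was then at -0.32, TPR at -0.36 and NUP62 at 0.08. Of the members that lay wholly below vector/4OHT as counted, only SENP2 stayed below 0, at -0.09. NDC1 was at 0.058, NUP133 at 0.0024, NUP43 at 0.064, NUP155 at 0.14 and NUP205 at 0.10. By edgeR no member passed with either shRNA after correction, when 2.5% of genes were called for shXPO7_3 and 3.29% for shXPO7_5. At an unadjusted p under 0.05 there were then 3 members with shXPO7_3, against 14.3% of all genes, and 5 with shXPO7_5, against 19.6%.

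The count with shXPO7_5 also rested on 1 library. Without shXPO7_5/4OHT A, 6 members passed, with TPR, RANBP2 and NUP50 lower and NUP62, SEC13 and POM121 higher. In that setting 23% of all genes were called, against 0.589% with the library kept. The libraries left, T and B, were the pair with the strongest relation to GC content. The part of the GC trend in the 6 calls was not tested.

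**Figure D4:**
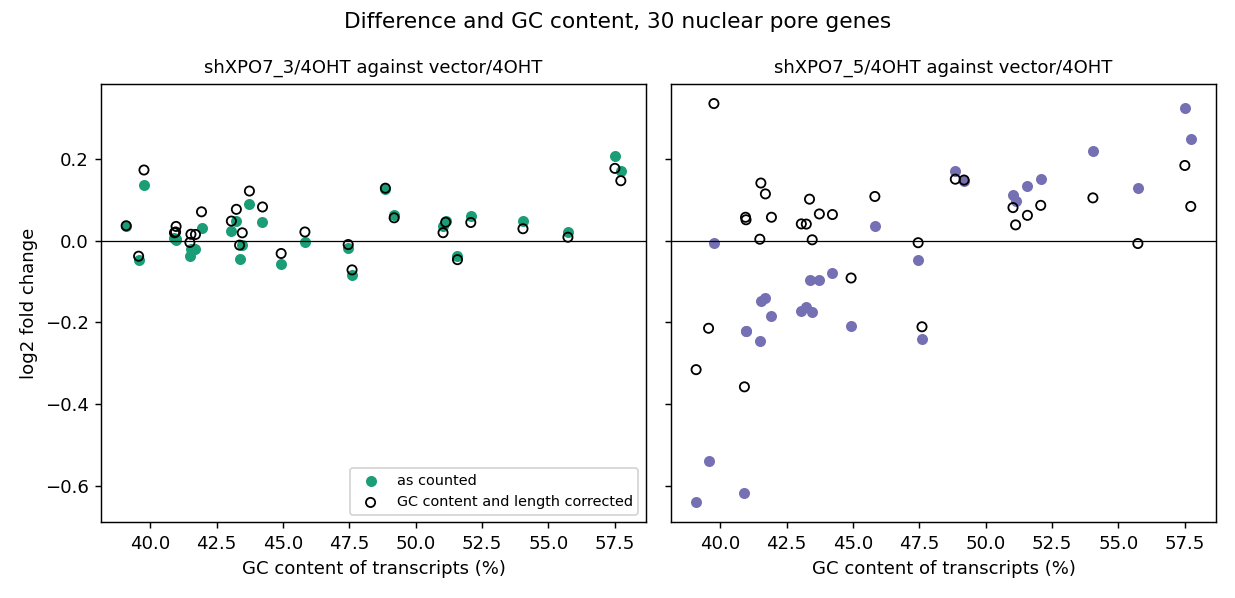
Log2 fold change against vector/4OHT and GC content of transcripts for the 30 tested members, as counted (filled) and after correction for GC content and length (open). With shXPO7_5 the filled points climb with GC content (Spearman 0.84) and the open points lie flatter (0.29).

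The 2 shRNAs were also set against each other. No member passed by edgeR (0.0131% of genes called) or by DESeq2, and 1 member had an unadjusted p under 0.05, against 11.9% of all genes. That member was NDC1, lower with shXPO7_5 at 28.8, 31.3 and 26.3 CPM than with shXPO7_3 at 31.04, 34.2 and 35.1 CPM. The log2 difference was -0.21 ± 0.09 (edgeR adjusted p = 0.388) and fell to nearly 0 in the correction for GC content and length, at -0.01. NUP160 and NUP43 followed with log2 differences of -0.21 and -0.12 (both at an edgeR adjusted p of 0.388). The median over the members was -0.13, and 0.0058 after the correction.

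For the mean of both shRNAs against vector/4OHT, no member passed by edgeR (0.556% of genes called) or by DESeq2, and NUP62 (0.21) and POM121 (0.27) had unadjusted p-values under 0.05, against 11.9% of genes. Of the 19 partners none passed with either shRNA by edgeR. Of the 16 proliferation genes 2 passed with shXPO7_5, or 12.5% against 0.589% of all genes, and none passed with shXPO7_3. The 2 were PLK1 and AURKB, kinases of mitosis, which rose by 0.72 and 0.63 on the log2 scale. The other 14 did not pass, and 4 of the 16 lay below 0 with shXPO7_5. The part of the GC trend in these values was not tested.

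Against vector without 4OHT, members were again called in both knockdown groups. With shXPO7_3/4OHT 14 of 30 members passed, 2 higher and 12 lower, against 50.6% of all genes (24.5% higher and 26.2% lower). With shXPO7_5/4OHT 14 passed, 3 higher and 11 lower, against 52.3% (25.3% higher and 27% lower). The count for shXPO7_5/4OHT was 9 when only the libraries of the 2 groups were fitted, where 45% of 14716 genes were called. These comparisons share the vector libraries with that of vector/4OHT, so their values are given side by side and not as separate evidence.

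NDC1 had a log2 fold change from vector of -0.88 in vector/4OHT, -0.85 in shXPO7_3/4OHT and -1.07 in shXPO7_5/4OHT. For NUP155 the values were -0.40, -0.42 and -0.55. The values for NUP62 were -0.63, -0.46 and -0.38, and those for SEH1L were 0.47, 0.49 and 0.30. POM121, at 0.15, 0.36 and 0.48, passed in both knockdown groups (edgeR adjusted p = 0.0276 and 0.00621) and not in vector/4OHT, although no difference from vector/4OHT passed. NDC1 with shXPO7_5 was the only member to fall by 2-fold or more, which 11.1% of all genes did, and with the GC content and length correction its value there was -0.86.

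Among the members with a start region, the CCAAT box was present in 6 of 11 that fell during OIS and in 4 of 14 tested without a call. E2F letters were present in 4 of 11 and 1 of 14, and ETS letters in 3 of 11 and 7 of 14. The CHR was present in 3 of each. A CHR and a CCAAT box occurred in the same window in NUP37 and NUP205, which fell, and in NUP35 and NUP98, which had no call. SEH1L, the gene that rose, had ETS letters and none of the other motifs in its window. These counts are small and are given as a description, with no test. No protein sequence of the members was analysed here.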

How the data were processed

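Stranded poly(A) RNA-seq libraries of 12 IMR90 ER:RAS samples were analysed in 4 groups of 3, taken from the sample labels. The deposited values are whole-number counts per Ensembl gene, which the authors made, per the submitters' processing notes, with CASAVA 1.8.4, TopHat2 2.0.11 and featureCounts 1.18.0 on hg19. No source used here gives the annotation, the strand setting or the handling of multimapped reads.

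The members and gene lists were chosen with earlier results of these data known. Genes passing filterByExpr (15284) were fitted in 1 model of all 12 libraries with edgeR 4.0.16 (R 4.3.3), TMM scaling and the quasi-likelihood F test. The sources used here give no test for differential expression. Alternatives were DESeq2 1.42.0, other filters and scalings, a GC content and length correction (spline of 5 degrees of freedom per library, 97.252% of tested genes with values) and leaving out each library. The Benjamini-Hochberg adjustment ran over all tested genes, and genes with an adjusted p under 0.05 were called. Named members follow a rule of largest and smallest called changes, and of smallest unadjusted p where none was called, except where stated. The script was tested on simulated data. Exon length, GC content and coordinates came from GENCODE 29 (GRCh38) by Ensembl identifier, and no coordinate was converted between builds. Depth was from 28534141 to 60397769 counts.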

Additional observations from a re-analysis of the deposited data

How the results depend on the processing

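Of the results that answer a comparison, 276 values stayed close to the main fit under the alternatives and 25 moved. A median counted as close if it shifted by less than its SD over libraries, and a count if it stayed of similar size. A median near 0 could therefore change sign without counting as moved. For shXPO7_3 against vector it went from -0.0706 to 0.0023 with the GC content and length correction. The count of called members during OIS was between 10 and 13 on leaving out 1 library, and their median log2 fold change was between -0.0965 and -0.0230. That median was -0.161 with upper-quartile factors, -0.0948 with a filter of CPM at or above 1 in 6 libraries, -0.0310 when GC content and length were corrected for and -0.0269 with that correction and a replicate block. With an absolute log2 fold change of at least 1 required, 0 members were called in vector/4OHT and 0 in shXPO7_3/4OHT against vector, and 1 in shXPO7_5/4OHT.

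Same-letter libraries had deviations correlated from -0.234 to 0.589 over 15 pairs, 8 of them over 0.1. These values do not settle whether the letters pair the libraries. The labels do not say what a letter marks, and the main fit left the letters out. With a replicate block, 12 members were called during OIS, 3 higher and 9 lower, against 52.3% of all genes. NUP107 (adjusted p = 0.0685 in edgeR) and NUP205 (0.0891) lost their calls in that fit, and AHCTF1 (0.94 on the log2 scale) and RANBP2 (0.76) gained one. The median was -0.0199, and 0 members were called with either shRNA against vector/4OHT. With the correction and the replicate block together, 2 members were called with shXPO7_5 (median 0.0616, 6.8% of all genes called) and 1 for the mean of both shRNAs (median 0.0482, 5.76% of genes). The correction alone gave medians of 0.0600, 0.0482 and, between the shRNAs, 0.00579, which was 0.00364 with the block. Leaving out 1 library gave 0 to 6 called members with shXPO7_5, with 6 on leaving out its library A, and a median between the shRNAs of -0.148 to -0.0643. Against vector, the median was 0.0388 for shXPO7_3 with correction and block, and for shXPO7_5 it was -0.0485 with the correction and 0.0110 with both, and 9 members were called there when only the groups compared were fitted. The causes were not tested.

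Signs turned during OIS only in members without a call. With upper-quartile factors the log2 fold change was -0.0435 for NUP160, -0.0210 for SENP2, -0.00479 for NUP54, -0.0486 for NUP43 and -0.0219 for NUP188. With the block it was 0.36 for TPR, 0.0369 for NUP50 and 0.0334 for NUP153, and with block and correction 0.16 for TPR, -0.0237 for NUP160 and 0.0667 for NUP50. RAE1 was at 0.0167 with the correction. On leaving out 1 library, TPR ran from -0.38 to 0.25, NUP160 from -0.0419 to 0.13, RANBP2 from -0.00141 to 0.63, NUP35 from -0.0382 to 0.19, RAE1 from -0.11 to 0.0474, NUP50 from -0.0984 to 0.0251 and NUP54 from -0.0456 to 0.21. The extremes came mostly from leaving out vector T or vector C.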

Other observations

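The summed TMM-scaled level of the members was between 1971 and 2182 CPM in vector, 1950 and 2023 in vector/4OHT, 1949 and 2067 in shXPO7_3/4OHT and 1858 and 1971 in shXPO7_5/4OHT. As a share of all counts, pore transcripts ran from 0.182% to 0.230% over the 12 libraries. Gene-level counts carry no information on isoforms, on protein or on the number of pores.

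Several values limit the reading. With 3 libraries a group, 95% intervals of RANBP2, TPR and AHCTF1 reached beyond 0.5 from 0 on the log2 scale with both shRNAs against vector/4OHT. Exons of other genes overlap those of 18 of the 31 members, on the same strand in 7. NUP210, at 0 to 4 counts, could not be compared.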
